A study of Homo sapiens with 9 samples.

Results

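The change described here is that from depletion of XRN1 alone to co-depletion of UPF1 and XRN1 in human HEK293 cells. It was read from 2 of the 9 samples of the series, 1 RNA-seq library for each of those conditions. Both were chosen by their labels, not by measured values. The libraries of control and SMG6/XRN1-depleted cells, the other RNA-seq samples, are printed beside them, while the 5'-end and CAGE libraries were not analysed here.

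The cells were HEK293 Flp-In T-Rex, a human embryonic kidney line, of the subline b-39. In all 4 conditions, the control included, they carried a b-globin reporter with a premature termination codon at position 39 (PTC39), expressed from the Flp-In site. Depletion was by siRNA, and the control cells received siRNA against EGFP. RNA was taken from a digitonin extract, which opens the plasma membrane, so it was mainly cytoplasmic, and poly(A)+ molecules were selected. With 1 library a condition nothing could be checked against a replicate, so no p-value was computed and every size describes these libraries. Fewer cells of a kind and less RNA per cell cannot be told apart in such bulk RNA. "Rose" and "fell" mean a change of at least 2-fold.

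Nonsense-mediated decay (NMD) removes RNAs on which ribosomes stop too early. UPF1 is the RNA helicase on which the pathway turns. A stop codon that lies well upstream of an exon junction is a strong trigger, because a complex left at that junction by splicing remains on the RNA after the ribosome has stopped. SMG6 is an endonuclease that cuts NMD targets near the stop codon, and XRN1 digests decapped RNA and cut fragments from their 5' ends. Many splicing factors use the pathway on their own RNA: a cassette "poison" exon with a stop codon is spliced in, and the product is decayed instead of translated.

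The stop codons of 8 isoforms are printed first because these isoforms show the rise that the rest of the comparison turns on. They are the most abundant in the UPF1/XRN1 library among annotated NMD-type isoforms (those that GENCODE classes as NMD targets) that rose, 1 a gene, so their rise chose them and is a description. Each line gives the last 27 coding bases in lower case and the stop codon in capitals, 5' to 3' on the coding strand, from GENCODE release 29 on GRCh38. Transcripts were matched by identifier, since the deposited tables hold no coordinates and used hg19.
HNRNPL, stop codon at chr19:38841624-38841626, minus strand: tctttcagaactgtgctaactcactgtTGA
TRA2B, stop codon at chr3:185931772-185931774, minus strand: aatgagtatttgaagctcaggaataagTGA
SRSF3, stop codon at chr6:36599852-36599854, plus strand: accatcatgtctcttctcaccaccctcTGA
SRSF6, stop codon at chr20:43459302-43459304, plus strand: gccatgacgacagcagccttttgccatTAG
HNRNPH1, stop codon at chr5:179618166-179618168, minus strand: ttggcagaggagctggctttgagaggaTGA
RSRC2, stop codon at chr12:122520558-122520560, minus strand: aaagagcgtgcttatgcgcgaagagacTGA
TAF1D, stop codon at chr11:93736161-93736163, minus strand: aatactggacagagaggcctgaaaatgTGA
HNRPDL, stop codon at chr4:82426059-82426061, minus strand: aatcaccaaaacaattaccagccatacTAA

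All 8 stop codons lie more than 50 nt before the last exon junction, from 127 nt in HNRPDL to 1015 nt in TRA2B, with between 2 and 8 junctions after them. In TRA2B the reading frame ends after 38 codons, in RSRC2 after 76, in SRSF3 after 124, in TAF1D after 278 and in HNRPDL after 420. Whether each stop codon lies before that of the gene's coding isoforms was not examined. HNRNPL, HNRNPH1, HNRPDL, SRSF3, SRSF6 and TRA2B encode RNA-binding proteins of the hnRNP and SR families or kin of them. TAF1D codes for a subunit of the RNA polymerase I initiation complex and carries snoRNAs in its introns.

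The isoform table gives spike-in normalised signal, in which 1 read was worth 4.05 in the XRN1 library and 3.72 in the UPF1/XRN1 library. The NMD-type isoform of HNRNPL, which encodes a splicing repressor, stood at 5429, 13785, 61447 and 83950 in control, XRN1, SMG6/XRN1 and UPF1/XRN1. The XRN1 library was above the control, and both co-depletions were far above XRN1. From XRN1 to UPF1/XRN1 its scaled reads rose 6.09-fold (95% interval 5.87 to 6.32, which covers counting error only). Its coding isoform ENST00000600873 stood at 29829, 30750, 29082 and 19596 in the same order, and was lowest with UPF1/XRN1. Another coding isoform, ENST00000601449, went from 19809 in XRN1 to a listed 0 in UPF1/XRN1.

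TRA2B, a splicing activator related to the SR proteins, had the same shape. Its NMD-type isoform stood at 4261, 13368, 35858 and 68872 in control, XRN1, SMG6/XRN1 and UPF1/XRN1, a rise of 5.15-fold from XRN1 (4.96 to 5.35). Its main coding isoform ENST00000453386 stood at 27740, 31325, 27684 and 25215. Another coding isoform, ENST00000342294, went from a listed 0 in XRN1 to 6773, so the summed coding signal was 32018 in XRN1 and 32079 in UPF1/XRN1. The share of the locus held by the NMD-type isoform went from 28.1% in XRN1 to 64.6% in UPF1/XRN1.

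For SRSF3, an SR protein, the NMD-type isoform stood at 8032, 31182, 57804 and 70033 and the main coding isoform at 72672, 61399, 65881 and 56729. In the control the coding isoform was far in excess, and in UPF1/XRN1 it was the smaller of the pair. TAF1D (11280, 24154, 108760 and 97459) and HNRPDL (11011, 17005, 54325 and 40017) differed from the other 6 in that SMG6/XRN1 was their highest library. RSRC2, which encodes an arginine- and serine-rich coiled-coil protein, stood at 10680 in XRN1 and 40677 in UPF1/XRN1, SRSF6 went from 36612 to 75326, and HNRNPH1 from 21997 to 53453.

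Over the whole isoform table, the position of the stop codon went with how often an isoform rose. Of 61408 isoforms with a mean signal of at least 30.9, 27.1% rose and 11.5% fell, and the median log2 change was 0.24. Isoforms whose stop codon lay downstream of the last junction, or at most 50 nt upstream of it, had medians between 0.04 and 0.06, and 16.2% to 19.7% of them rose. In the next bin, with the stop more than 50 and up to 100 nt before the junction, the median was 0.61 and 37.3% of 410 isoforms rose. The median was 0.74 for 100 to 200 nt and highest, at 0.99, for 200 to 400 nt, where 49.6% of 914 isoforms rose. Beyond 400 nt it was 0.73 in both bins.

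**Figure D1:**
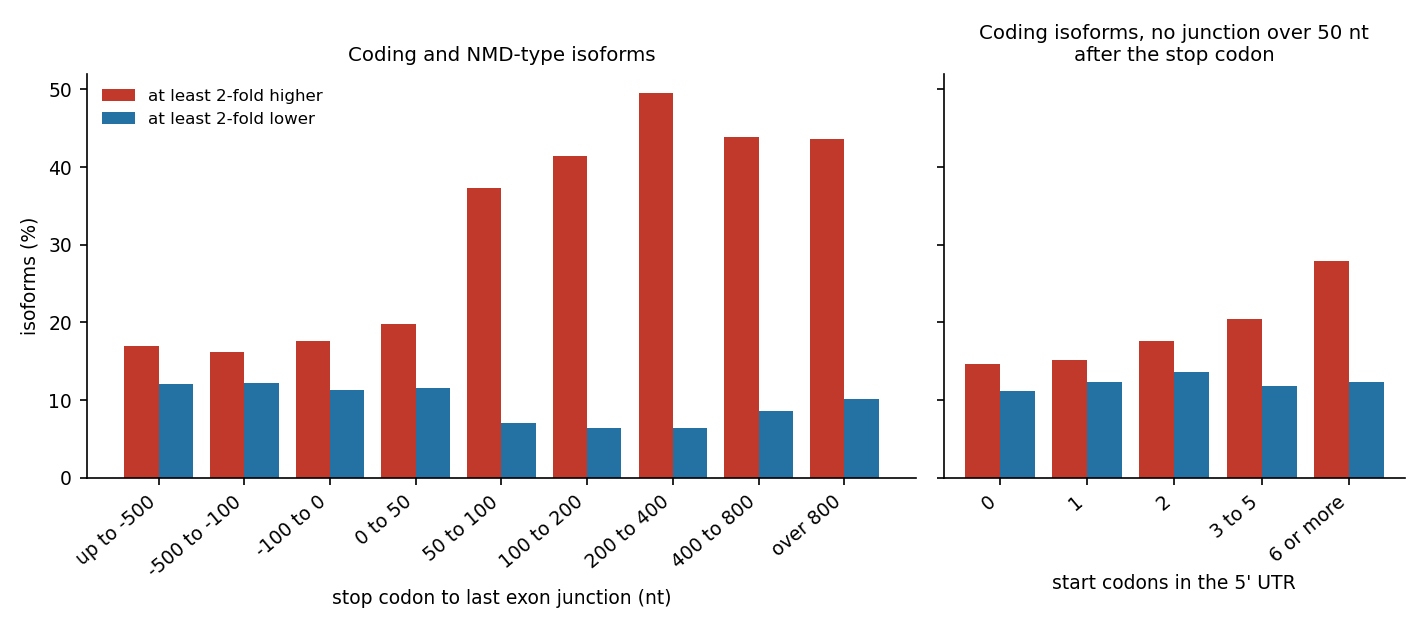
Percent of isoforms at least 2-fold higher (red) and at least 2-fold lower (blue) in UPF1/XRN1 over XRN1, by the distance in nt from the stop codon to the last exon junction (left; negative where the stop lies after it) and by the number of start codons in the 5' UTR (right). The red bars step up from 19.7% to 37.3% past 50 nt and reach 49.6%, and on the right they go from 14.6% to 27.9%.

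The classes of transcript are not separate from the bins of stop position. In the bin of 200 to 400 nt, for example, 879 of 914 isoforms were of the annotated NMD type. The 3583 annotated NMD-type isoforms had a median log2 change of 0.79 and 44.7% rose, against 0.06 and 17.7% for 25734 coding isoforms. The 3631 retained-intron isoforms (0.42, 32.5% rose), 3782 processed transcripts (0.44, 33.9%) and 625 lincRNA isoforms (0.41, 181 rose) lay between. The 75 isoforms of unprocessed pseudogenes had a median of 0.75. With only isoforms above 0 in all 4 libraries, the NMD type still had 0.71 and the coding type 0.06. As a part of all signal, NMD-type isoforms made up 2.85%, 3.57% and 3.95% with XRN1, SMG6/XRN1 and UPF1/XRN1, and less than these in the control. Isoforms of 1 locus share reads, so their values are estimates that depend on each other.

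Both types were then compared inside the same locus. Of 2489 loci with both NMD-type and coding isoforms, the NMD type had the higher change in 1806 (72.6%), with medians of 0.75 and 0.08. The NMD type rose at 1064 loci and the coding type at 159. The median share of the NMD type was 5.87%, 7.83%, 11.5% and 13.4% in control, XRN1, SMG6/XRN1 and UPF1/XRN1. At 585 loci where both types had a mean signal of at least 1000, the NMD type led in 73.3%. The medians there were lower, 0.48 and 0.03, and the NMD type rose at 187 of the 585.

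Genes that encode splicing regulators were examined one by one. The lists of SR proteins, hnRNP proteins and other splicing regulators had 10, 12 and 21 loci with both types. The NMD type had the higher change in all 10 SR loci, in 9 hnRNP loci (75.0%) and in 17 of the others (81.0%), beside the 72.6% of all loci given above. At the SR loci its median share was 6.07%, 15.02%, 25.3% and 31.1% in control, XRN1, SMG6/XRN1 and UPF1/XRN1. At the hnRNP loci both co-depletions had 32.0%, against 21.6% for XRN1. The annotation does not always mark a minor isoform. At HNRPDL the NMD type held 71.7% of the coding plus NMD-type signal in the control. It held 100% there in XRN1, SMG6/XRN1 and UPF1/XRN1, where the coding signal was a listed 0. At HNRNPA1 and HNRNPA2B1 the NMD type held 99.3% and 95.0% already in the control. From XRN1 to UPF1/XRN1 its signal went from 220541 to 165516 at HNRNPA1 and from 149053 to 177219 at HNRNPA2B1. Higher shares were not confined to splicing genes: at 28 loci of the respiratory chain the median share was 4.12% for XRN1 and 17.8% for UPF1/XRN1. The NMD type had the higher change at 21 of these 28 (75.0%), near the 72.6% of all loci. It rose at 10 of them, beside 1064 of all 2489 loci. The median log2 change at the 28 was 0.58 for the NMD type and -0.28 for the coding type, against 0.75 and 0.08 over all loci.

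RBM39, a splicing coactivator, had NMD-type shares of 15.4%, 14.98%, 35.1% and 58.6% in control, XRN1, SMG6/XRN1 and UPF1/XRN1. Control and XRN1 were close, unlike for HNRNPL (8.68% and 17.5%) and TRA2B (12.9% and 29.5%). SRSF2 went from 52.5% in XRN1 to 92.9% in UPF1/XRN1, and its coding isoforms fell by 1.77 on the log2 scale. SRSF10 went from 12.01% to 42.9%, SRSF7 from 31.6% to 55.8% and the kinase CLK1, which phosphorylates SR proteins, from 37.9% to 67.7%. SNRPB, which encodes a core snRNP protein, went from 4.47% to 24.1%. The assembled loci of CLK1 and SNRPB also hold reads of other symbols, 73.5% and 86.8% being their own. SRSF1 (18.0% and 19.3%), HNRNPUL1 (33.1% and 32.5%) and LUC7L3 (35.9% and 40.9%) stayed near their XRN1 share, and DDX5 went down, from 23.8% to 15.6%.

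**Figure D2:**
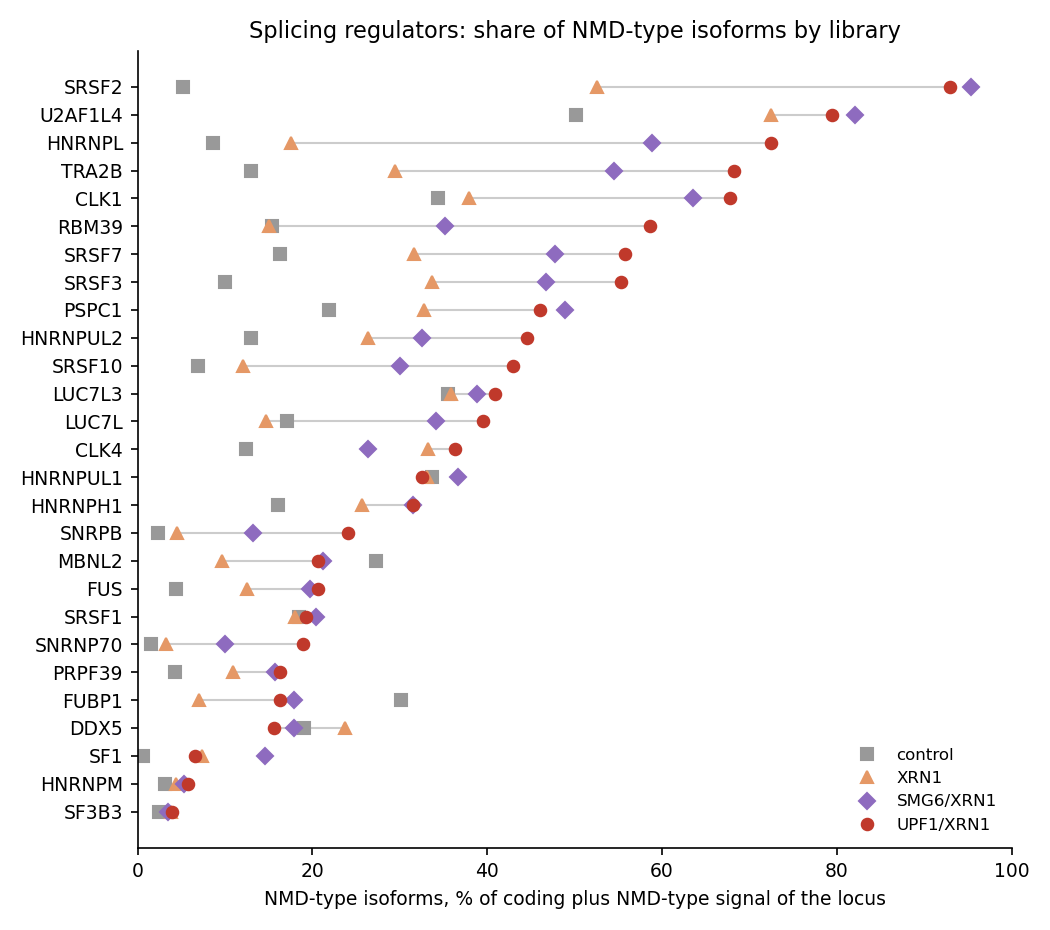
Share of NMD-type isoforms in the coding plus NMD-type signal of each locus (percent, x axis) for splicing regulators with a mean NMD-type signal of at least 1000 and an XRN1 share under 90%, in the 4 libraries (symbols). HNRNPL runs from 17.5% in XRN1 to 72.4% in UPF1/XRN1 and TRA2B from 29.5% to 68.2%, while SRSF1 and HNRNPUL1 hardly move.

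At the level of the whole gene these switches were much smaller. SRSF3 stood at 274, 293, 360 and 365 FPKM in control, XRN1, SMG6/XRN1 and UPF1/XRN1, and HNRNPL at 460, 563, 588 and 542 FPKM. Neither passed 2-fold (log2 change from XRN1 to UPF1/XRN1 of 0.31 and -0.06). TRA2B (105 to 317 FPKM, 1.58), SRSF10 (114 to 278 FPKM, 1.27), RBM39 (196 to 508 FPKM, 1.37), LUC7L (26.9 to 62.6 FPKM, 1.19) and the pre-mRNA processing factor PRPF39 (41.6 to 89.0 FPKM, 1.08) rose as genes. Of 14 SR genes compared 2 rose, of 37 other splicing regulators 3 rose, and of 30 hnRNP genes none rose, beside 306 of all 12164 genes. No member of these 3 lists fell, near the background of 0.534% of all genes. By summed isoform signal 1 SR gene rose, with SRSF10 at 0.90 under 2-fold, and 6 of the other regulators did.

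Start codons in the 5' UTR also went with the change. Translation of a short upstream frame ends far from the mRNA's own stop codon, and some such mRNAs are known NMD targets. Among coding isoforms without a junction more than 50 nt after the stop, 14.6% of 10615 with no upstream ATG rose, with a median log2 change of 0.01. The share was 15.2% with 1 upstream ATG, 20.5% with 3 to 5 and 27.9% of 1687 with 6 or more, where the median was 0.28. More ATGs need a longer 5' UTR. Among 5' UTRs of 400 bases or more, the share that rose was 14.1% with none and 28.3% with 6 or more, so the order held there too. Below 100 bases it did not hold, with 15.5% for none and 12.5% for 3 to 5, the latter in 40 isoforms.

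A long 3' UTR, another feature tied to NMD in the literature, went the other way in these libraries. Among 4662 such isoforms with a 3' UTR under 200 bases, 19.9% rose. Among 1549 with at least 4000 bases, 11.3% rose and the median log2 change was -0.06.

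Genes were compared by FPKM, reads scaled by transcript length and library size. Of 12164 genes whose 4 libraries averaged 1 FPKM or more, 306 rose (2.52%) and 65 fell (0.534%), with a median log2 change of 0.02. Changes are log2 of the ratio after 1 FPKM was added to both values, which understates those of low genes. Of the 306, 270 were higher in UPF1/XRN1 than in any other library, and 267 had SMG6/XRN1 between XRN1 and UPF1/XRN1. Only 26 were 2-fold above SMG6/XRN1 as well. The 306 were chosen for a high UPF1/XRN1 and a low XRN1 value, which by itself favours the first 2 counts. The same counts over all genes were not made. In 70 of the 306 the XRN1 library was already 2-fold above the control.

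**Figure D3:**
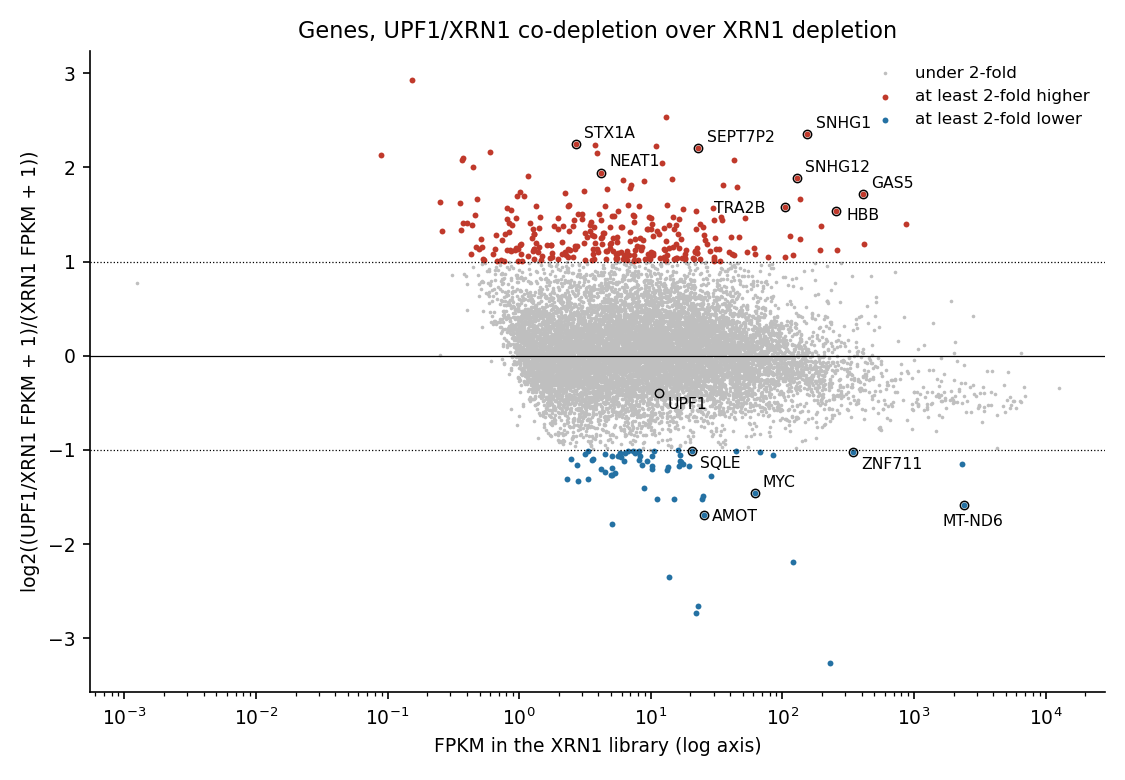
Each compared gene above 0 in XRN1 by its FPKM in the XRN1 library (log axis) and its log2 change in UPF1/XRN1 over XRN1, with genes past 2-fold coloured and dotted lines at 2-fold. SNHG1 at 2.35 and STX1A at 2.25 are near the top, AMOT and MYC lie below -1.4, and UPF1 lies at -0.39.

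What a gene encodes went with how often it rose. Of 10334 protein-coding genes 1.49% rose, of 851 long non-coding RNA genes 5.52%, and of 377 pseudogenes 14.1%. Of the 154 protein-coding genes that rose, 49.4% had an annotated NMD-type transcript in the table, against 35.7% of all protein-coding genes and 9 of the 45 that fell. The genes that rose also had more isoforms, with a median of 9, against 7 for all and 5 for those that fell. The part of this in the shares was not tested. Short gene structures were frequent among the falls: 16 of 45 (35.6%) had a main coding transcript of at most 3 exons. The share was 12.04% of all protein-coding genes with such a transcript and 8.22% of those that rose. The 161 compared genes with a single-exon main transcript had a median of -0.14, and the 1430 with 20 or more exons one of 0.06.

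Non-coding hosts of snoRNAs rose most often of the lists with at least 10 genes compared. These genes are transcribed for the snoRNAs in their introns, and their spliced RNA holds only short reading frames. The title of the series names them, so their direction is not independent evidence. Of 16 compared, 9 rose, against 2.52% of all genes, and the median log2 change was 1.10. None fell, near the background of 0.534%. SNHG1 stood at 55.9, 154, 440 and 792 FPKM in control, XRN1, SMG6/XRN1 and UPF1/XRN1, each library above the one before. GAS5 stood at 176, 412, 1482 and 1353 FPKM and ZFAS1 at 380, 868, 3336 and 2290 FPKM, both with SMG6/XRN1 highest. SNHG12 (37.2, 129, 445 and 479 FPKM), EPB41L4A-AS1 (16.4, 44.9, 136 and 157 FPKM), SNHG7 (37.0, 119, 204 and 252 FPKM) and SNHG15 (12.4, 45.5, 60.6 and 91.2 FPKM) were highest in UPF1/XRN1. SNHG15, at a log2 change of 0.99, did not pass 2-fold. The other rises were SNHG6, SNHG11 and DLEU2.

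DLEU2, known mainly as a host of microRNAs, was unlike the rest in that XRN1 was its lowest library, with 49.7, 31.2, 49.9 and 69.5 FPKM. By summed isoform signal 11 of the 16 rose and 1 fell, and with 0.1 FPKM added in place of 1 the counts were 10 and 1. SNHG9, at 1.29, 2.18, 2.88 and 0.696 FPKM, had the lowest change (-0.91, and -1.62 by signal). Hosts that stayed flat were SNHG16 (65.5, 70.3, 56.5 and 58.4 FPKM) and DANCR (26.6, 27.3, 24.8 and 24.3 FPKM). The isoforms of SNHG1 did not move alike. ENST00000539921, its main one, rose from 7378 to 41781 in signal from XRN1 to UPF1/XRN1 and ENST00000541578 from 566 to 15067, while ENST00000542112 went from 2155 to a listed 0.

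Pseudogenes split by how they arose. Unprocessed pseudogenes are copies of a gene with its introns, made by duplication, and can be spliced. Processed pseudogenes are copies of an mRNA and usually lack introns. Of 150 transcribed unprocessed pseudogenes 35 rose (23.3%, median log2 change 0.54) and of 49 other unprocessed pseudogenes 9 rose (18.4%, median 0.50). Of 125 processed pseudogenes none rose, 2 fell, and the median was -0.13, while 3 of 34 transcribed processed ones rose.

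Each pseudogene was then set beside the gene it is named for, where both were compared. In 39 of 48 unprocessed pairs the pseudogene had the higher change, with medians of 0.87 for the pseudogene and 0.01 for the parent. In 60 processed pairs the pseudogene had the higher change in 37, with medians of -0.11 and -0.33. SEPT7P2, a copy of the septin gene SEPT7, went from 22.9 to 110 FPKM (2.21) while SEPT7 went from 91.9 to 86.3 FPKM. SDHAP1, from the succinate dehydrogenase gene SDHA, went from 7.37 to 22.6 FPKM while SDHA went from 97.7 to 67.7 FPKM. ASNSP1 went from 13.8 to 37.8 FPKM (1.39) beside ASNS, the asparagine synthetase gene, at 319 and 282 FPKM. RPL32P3 rose from 2.41 to 9.31 FPKM (1.60) beside RPL32 at 2510 and 1803 FPKM. WHAMMP2 (1.19) and its parent WHAMM (1.29) rose alike. Near-identical copies share reads, so the value of a single copy is uncertain.

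**Figure D4:**
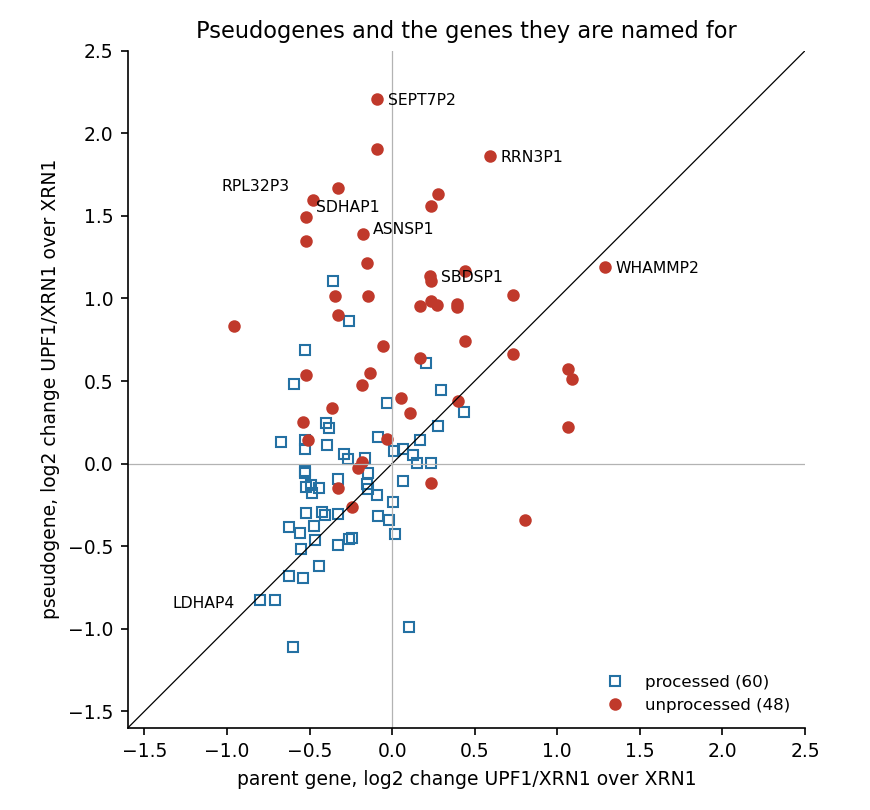
Log2 change from XRN1 to UPF1/XRN1 of each pseudogene (y axis) against that of the gene it is named for (x axis), for unprocessed (red circles) and processed (blue squares) pseudogenes, with the line of equal change. Of the 48 red points 39 lie above the line, up to SEPT7P2 at 2.21.

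The largest rises by the naming rule included pseudogenes, other duplicated copies of genes, RNAs that code for no protein and the coding gene STX1A. CCT6P1, a pseudogene of a chaperonin subunit, stood at 42.0, 43.1, 84.9 and 185 FPKM in control, XRN1, SMG6/XRN1 and UPF1/XRN1. RRN3P1 went from 6.16 to 25.1 FPKM, CBWD7 from 12.1 to 53.3 and CBWD5 from 35.2 to 126, all with SMG6/XRN1 between. ARHGAP11B, a partial duplicate of a GTPase-activating protein gene, stood at 2.12, 6.98, 21.9 and 26.5 FPKM. STX1A, which encodes a syntaxin of neuronal vesicle release, stood at 1.45, 2.69, 8.77 and 16.5 FPKM, and its scaled reads rose 5.01-fold (4.03 to 6.27) on 98 and 534 reads. Its retained-intron isoform ENST00000462135 went from 30.7 to 441 in signal.

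NEAT1, the nuclear scaffold RNA of paraspeckles, stood at 3.62, 4.201, 11.3 and 19.001 FPKM in control, XRN1, SMG6/XRN1 and UPF1/XRN1 (1.94). As NEAT1 and retained introns are mainly nuclear, other nuclear RNAs are given beside them. MALAT1 stood at 21.6, 19.3, 19.9 and 24.3 FPKM (0.32) and the list of 8 nuclear long non-coding RNAs had a median of 0.23, with NEAT1 and PVT1 (22.6 to 49.3 FPKM) as its 2 rises. Whether nuclear RNA reached these extracts to a different degree was not tested.

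The targets of the siRNAs came out differently by gene and by isoform. UPF1 stood at 6.71, 11.6, 11.4 and 8.59 FPKM in control, XRN1, SMG6/XRN1 and UPF1/XRN1, above the control in all 3 depletions. Its fully matching coding isoform ENST00000262803, however, stood at 2267, 3521, 4276 and 936 in signal, lowest in UPF1/XRN1. ENST00000599848 followed with 691, 1237, 1365 and 307. An assembled isoform with a new junction stood at 1261, 2485, 2160 and 3169 and made up 68.2% of UPF1 signal in UPF1/XRN1, against 34.0% in XRN1. XRN1 itself stood at 7.80, 7.31, 10.1 and 6.50 FPKM, so the level of its mRNA gives no check of the siRNA. SMG6 stood at 4.77, 5.55, 7.66 and 5.97 FPKM, highest in the library labelled SMG6/XRN1, which by FPKM goes against that label. By estimated reads, at 571, 718, 672 and 1115, SMG6 was highest in UPF1/XRN1 instead, so the 2 measures differ. Its coding isoform ENST00000263073 stood at 1694, 2118, 1453 and 1704 in signal, lowest in that library. All libraries are named by their labels here.

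HBB, under which reads of the b-globin reporter can be counted, stood at 139, 257, 355 and 747 FPKM. It was the highest in UPF1/XRN1, with scaled reads 3.67 times those of XRN1 (3.52 to 3.83). Its fully spliced isoform ENST00000335295 went from 7443 to 32036 in signal and its retained-intron isoform ENST00000475226 from 3813 to 9272.

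None of the 14 NMD factors compared passed 2-fold, and 10 lay above 0 with a median log2 change of 0.27, beside 6340 of all 12164 genes above 0. With 2.52% of all genes past 2-fold upward, no rise among 14 is near the background. SMG9, a regulator of the kinase SMG1, stood at 14.7, 29.9, 42.9 and 47.9 FPKM, SMG5 at 7.27, 14.2, 18.6 and 21.9 FPKM and UPF2 at 13.4, 20.2, 26.3 and 26.9 FPKM, each with the control lowest and UPF1/XRN1 highest. SMG1 stood at 13.8 FPKM in XRN1 and 12.5 in UPF1/XRN1. For NMD targets of the literature, 5 of 38 rose (13.2%, beside 2.52% of all genes). None fell, near the background of 0.534%, and the median was 0.50. Those that rose were GAS5, ZFAS1, SNHG12 and TRA2B, given above, and UPP1, a uridine phosphorylase gene (3.28, 5.19, 8.43 and 13.7 FPKM). GADD45A, a growth arrest gene of the same list, stood at 49.96, 79.6, 104 and 156 FPKM without passing 2-fold.

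Genes of stress responses followed. Of 35 targets of ATF4, the transcription factor of the integrated stress response, 4 rose (11.4%, beside 2.52% of all genes), with a median of 0.16. NUPR1, a stress-induced chromatin protein gene, stood at 1.21, 4.32, 9.56 and 12.1 FPKM. ATF5, whose mRNA holds upstream reading frames, stood at 5.19, 3.29, 5.81 and 9.31 FPKM, and SESN2 at 6.03, 10.3, 13.5 and 23.1 FPKM. SLC3A2, an amino acid transporter subunit gene, went from 62.2 to 133 FPKM. Serine and proline synthesis genes of the same list were lower in UPF1/XRN1 than in XRN1, under 2-fold: PHGDH (151 and 131 FPKM), PSAT1 (151 and 127 FPKM) and PYCR1 (24.9 and 15.8 FPKM). Of 21 tRNA synthetase genes and 23 ER stress genes none passed 2-fold, near the background of 2.52% and 0.534%, with medians of -0.02 and -0.01 that were above 0 (0.10 and 0.06) by summed isoform signal. SESN2 is also on the list of p53 targets. Of 31 such genes compared 2 rose (6.45%, beside 2.52% of all genes), with a median of 0.49.

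**Figure D5:**
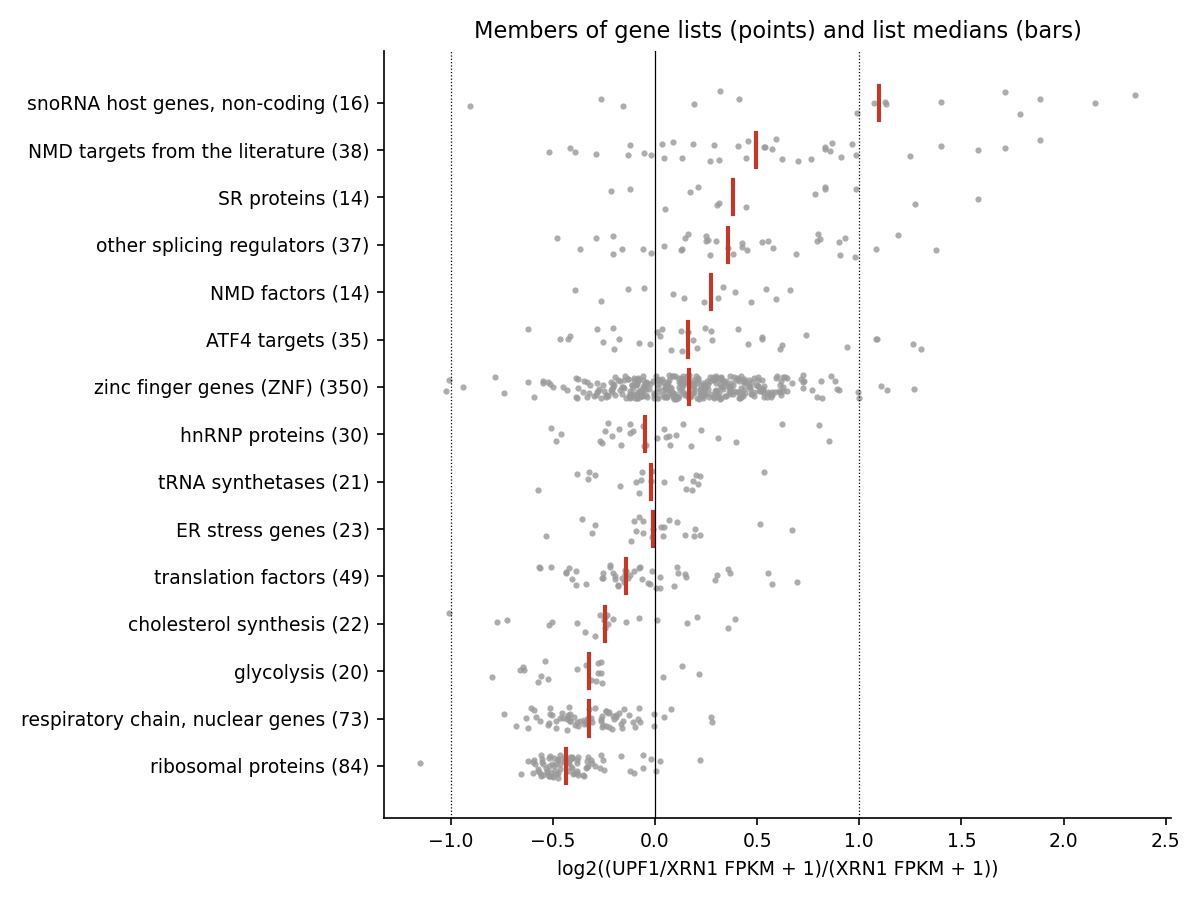
Log2 change of FPKM from XRN1 to UPF1/XRN1 for each member of 15 gene lists (points; number compared in brackets) with list medians (red bars) and dotted lines at 2-fold. The snoRNA hosts have the highest median, 1.10, and the ribosomal proteins the lowest, -0.44.

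Below 0, small shifts were shared across whole groups of abundant mRNAs. Over all 12164 genes 6340 lay above 0 and 0.534% fell. Of 84 ribosomal protein genes 81 lay at or below 0, with a median of -0.44, and 1 fell. In 69 of the 84 UPF1/XRN1 was the lowest of the 4 libraries, while in 80 XRN1 was above the control. How often all genes had such orders of the libraries was not counted, for this group or those below. RPL41 stood at 2498, 2724, 2187 and 1798 FPKM. RPS12 (2027 and 2063 FPKM) and RPL22L1 (53.1 and 62.1 FPKM) were among the exceptions. At 25 of 27 ribosomal protein loci with both types the NMD-type isoforms still had the higher change, beside 72.6% of all loci. The median log2 change there was 0.05 for the NMD type and -0.35 for the coding type. The NMD type rose at 7 of the 27, RPLP0 among them, beside 1064 of all 2489 loci. Over all loci the medians were 0.75 for the NMD type and 0.08 for the coding type. RPLP0, for the ribosomal stalk, had NMD-type signal of 6371, 11522, 35139 and 33634 while its coding signal went from 286186 in XRN1 to 203045 in UPF1/XRN1.

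Nuclear genes of the respiratory chain showed the same direction, with 69 of 73 at or below 0 and a median of -0.32. For this and the next groups too, the base is 6340 of all 12164 genes above 0. NDUFS5, of complex I, stood at 752, 662, 570 and 413 FPKM. Of 20 glycolysis genes 17 were below 0 (median -0.32) and 16 had their lowest value in UPF1/XRN1. LDHA, lactate dehydrogenase, stood at 1403, 1476, 1094 and 849 FPKM and PGK1 at 275, 237, 212 and 149 FPKM. Of 22 cholesterol synthesis genes 17 were below 0 (median -0.25), and SQLE, squalene epoxidase, fell from 20.6 to 9.73 FPKM (-1.01). By summed isoform signal it was at -0.99, so that no gene of this list passed 2-fold. INSIG1, which holds the sterol sensor in the ER, went from 31.2 to 17.9 FPKM without passing 2-fold.

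The signs of these 4 medians were the same with isoform signal summed per gene (-0.36 for ribosomal proteins, -0.19 for the respiratory chain, -0.30 for glycolysis and -0.21 for cholesterol synthesis). Level went with the change: the 883 genes of at least 100 FPKM had a median of -0.15, against 0.06 for 4083 genes of 5 to 20 FPKM. FPKM are shares of a library, and a mitochondrial locus listed under MT-ND5 was at 0, 0, 2180 and 1317 FPKM in control, XRN1, SMG6/XRN1 and UPF1/XRN1. Its part in these shifts was not tested.

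Among single genes, falls past 2-fold included regulators of growth and development. MYC stood at 44.1, 61.6, 29.5 and 21.8 FPKM in control, XRN1, SMG6/XRN1 and UPF1/XRN1, and both of its main isoforms fell alike (-1.39 and -1.46). AMOT, angiomotin of the Hippo pathway, stood at 20.1, 25.2, 14.3 and 7.11 FPKM. Its fully matching isoform ENST00000304758 fell from 19567 to 3535 in signal, while an assembled isoform with a new junction rose from 429 to 1826. The transcription factor genes HOXA13 (13.2, 11.1, 6.63 and 3.23 FPKM) and SOX4 (29.1, 28.6, 23.4 and 11.2 FPKM) and the channel-regulatory gene KCTD12 (20.6, 24.9, 12.9 and 8.24 FPKM) were lowest in UPF1/XRN1 too. The zinc finger gene ZNF711 stood at 278, 346, 184 and 170 FPKM. MYOM2, a sarcomere protein gene, stood at 13.9, 14.96, 11.9 and 4.56 FPKM. MT-ND6, a mitochondrial complex I gene, stood at 2261, 2385, 1191 and 796 FPKM and fell, and MT-CYB, of complex III, stood at 1101, 959, 697 and 558 FPKM, under 2-fold. The locus listed under MT-ND5 held 0, 0, 695974 and 478468 estimated reads in the same order. Whether mitochondrial reads were assigned to different loci between libraries was not tested.

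In other falls it was the XRN1 library that stood apart. AC004448.5 was at 34.6, 230, 31.2 and 23.0 FPKM, FAM72C at 1.83, 22.2, 2.44 and 2.504 FPKM, and RPL9P9 at 3.77, 22.9, 9.35 and 2.79 FPKM. Of the 65 genes that fell, 13 had XRN1 at least 2-fold above the control, and 21 were also 2-fold below the control.

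FPKM and reads did not always go together. Of the 306 rises 263 were also past 2-fold by summed isoform signal, and of the 65 falls 56 were. RCOR1, a corepressor gene, went from 13.1 to 80.8 FPKM while its estimated reads went from 1636 to 1850, and CHD8 from 11.04 to 55.3 FPKM on 2161 and 2659 reads. ISG20, an interferon-induced exonuclease gene, rose by 2.08 in FPKM on 30 and 53 reads. In 2 other rises of its list the measures were alike. ISG15, an interferon-induced ubiquitin-like gene, went from 4.62 to 11.2 FPKM on 158 and 426 reads, and IL8 from 2.39 to 7.49 FPKM with 11.4 FPKM in the control. ISG20, ISG15 and IL8 were the only rises among 23 genes compared of the interferon list (13.0%, beside 2.52% of all genes). The median of that list was 0.04, with 13 genes above 0.

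Some isoforms were listed at 0 in XRN1, which gives no fold. A processed transcript of PTBP2, the neuronal polypyrimidine-tract protein gene, stood at 0, 0, 15127 and 14139 in signal. An NMD-type isoform of KIAA1033 stood at 0, 0, 3992 and 5389, and coding isoform ENST00000342294 of TRA2B at 0, 0, 1150 and 6773. These 3 had signal only with the co-depletions. The gene table held 1336 zeros for the control, 1294 for XRN1 and none for either co-depletion, and the part of this in such isoforms was not tested.

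The libraries held between 31476411 and 35983128 estimated reads, with 32970259 for XRN1 and the most for UPF1/XRN1. Of 14 genes listed as markers of this line 8 were compared, with a median log2 change of -0.11, from NEFL (57.3 and 31.3 FPKM, -0.85) to FOXD1 (2.68 and 3.19 FPKM, 0.19). Of 21 markers of other cell types 3 were compared, all lower in UPF1/XRN1 than in XRN1 and under 2-fold: EPCAM (126 and 98.0 FPKM), HBA1 (5.21 and 3.83 FPKM) and HBA2 (1.75 and 1.08 FPKM).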

How the data were processed

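Cytoplasmic poly(A)+ RNA of siRNA-treated HEK293 cells was sequenced from ScriptSeq v2 libraries, per the labels' protocols. Per the submitters' processing notes, TopHat2 2.0.6, Cufflinks 2.0.2, Bowtie 0.12.7 and CASAVA 1.8.2 were used with hg19, without a role for each. The authors deposited gene values as FPKM per assembled locus. The authors deposited isoform values as spike-in normalised signal; the sources used here do not give the spike-in or the strand setting. Other deposited columns are the authors' identifiers and class codes.

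Loci were joined by identifier and named by the reference symbol holding most reads. The change is log2((UPF1/XRN1 + 1)/(XRN1 + 1)) of the deposited values. Genes needed a mean of 1 FPKM over 4 libraries (12164 of 22266 loci), and isoforms a mean signal of at least 30.9, which is the median over isoforms with any signal. On the signal scale the added 1 is less than 1 read, so low isoforms pass 2-fold easily. Estimated reads are signal divided by the value of 1 read; of loci with at most 20 reads, 84.6% were whole within 0.01 in XRN1 and 86.7% in UPF1/XRN1. Ratios carry exact conditional binomial intervals at 95%, for counting error only.

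Transcript types, stop codons and UTRs came from GENCODE release 29, matched by identifier for 93.7% of isoforms with a reference; 26.2% had the same transcript version. Python 3.11.15, pandas 2.3.3 and scipy 1.17.1 were used, and the calls were tested on simulated data. The members and the 43 gene lists were chosen with earlier results of these data known. The genes named are the 20 largest rises and 12 largest falls with a mean of at least 5 FPKM, no library listed at 0, at least 50 reads and the same call by signal, up to 3 rises and falls and 2 members near the median of each list, and UPF1, XRN1, SMG6 and HBB. Genes picked to illustrate a group, pairs of pseudogene and parent, and those named for unequal FPKM and reads, were chosen after their values were seen. Alternatives were another pseudocount, filter, threshold, scale and base library. Of the lists and the genes named by this rule, only some are reported here.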

Additional observations from a re-analysis of the deposited data

How the results depend on the processing

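No paired analysis was possible because each condition had 1 library, and leaving out a replicate was likewise not possible. Against 306 rises and 65 falls, the counts of genes were 529 and 215 with 0.1 FPKM added in place of 1, 103 and 14 with 5 FPKM added, 203 and 41 with a mean of at least 5 FPKM, 573 and 157 with isoform signal summed per locus, and 55 and 7 at 3-fold. With the control as the base 1244 genes rose and 70 fell. Rises made up 82.5% of calls, 71.1% with 0.1 FPKM added and 94.7% with the control as the base. Without a filter, with the filter over the libraries compared, after centring or without genes listed at 0, both counts stayed within 1.5 times.

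Against 16613 rises and 7078 falls of isoforms, the counts were 9318 and 3903 with a mean signal of at least 100 and 38404 and 18678 without a filter. Isoforms above 0 in every library, a choice made after seeing the data, gave 11181 and 4315. With 5 added, or with totals made equal, they stayed within 1.5 times. By summed signal, 81 of the 149 named genes moved by more than their counting interval. The sign differed for 19, of which 18 were under 2-fold by FPKM, HNRNPL (-0.06 and 0.44) and XRN1 (-0.15 and 0.17) among them. The other was ZNF71, at -1.01 by FPKM and 0.16 by summed signal, and the cause was not tested. At this depth 1 read was worth 3.72 to 4.25 of signal, so isoforms near the filter rest on few reads.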
